A study of Rattus norvegicus with 46 samples.

Results

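Translation factors are the soluble proteins that start and lengthen protein chains on the ribosome. The genes described here are all those whose platform symbol begins with Eif or Eef, leaving out Eif4ebp1, and each is represented by the probe set with the highest mean over the arrays. There are 54 such genes of 14317 named genes on the array, and all 54 were among the 9289 genes that passed a filter on low values (above the median of the own array on at least 4 arrays). They were measured in the proximal gastrocnemius of 23 female Sprague-Dawley rats on 46 arrays, 1 for each leg. Every rat carried catheters and electrodes placed by surgery, was under isoflurane, paralysed by infused α-cobrotoxin (an antagonist of the acetylcholine receptor on muscle) and mechanically ventilated. The left ankle of each rat was flexed and extended by machine, 13.3 times per minute and 12 h per day (6 h in total at the shortest duration), and the other leg was not moved. The groups were loaded and unloaded legs after 6 h to 4 d (13 rats), 5 to 8 d (4 rats) and 9 to 14 d (6 rats) of this treatment. Each window mixes several durations, untreated animals were not analysed here, and age is not given in the sources used here.

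Initiation begins when eIF2 carries the initiator tRNA to the small ribosomal subunit, which eIF3 holds open and eIF4F, the complex on the mRNA cap, recruits to a message. Elongation is driven by eEF1A, which delivers each aminoacyl-tRNA, and eEF2, which moves the ribosome along by a codon. Muscle is known for exchanging isoforms of eEF1A after birth, with Eef1a2 taking over from Eef1a1 in mice and rats. In mammals many elongation factors, like ribosomal proteins, are made from messages that begin with a C and a run of pyrimidines (5′ terminal oligopyrimidine, or TOP, messages), whose translation is controlled through mTORC1.

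Start regions in RefSeq (build GRCr8) are shown for the 4 TOP factor genes for which a promoter sequence was available, Eef1a1, Eef1b2, Eef1g and Eef2. These 4 rose, and Eef1a2 is set beside them as the isoform that did not. Each line holds 30 bases before and 15 from the annotated start, read on the strand of the gene, with the longest run of a C followed by at least 4 C or T that begins within 20 bases of the start in capitals.
Eef1a1, chr8:88225055-88225099, minus strand: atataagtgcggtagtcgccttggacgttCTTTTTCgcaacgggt
Eef1b2, chr9:72074061-72074105, plus strand: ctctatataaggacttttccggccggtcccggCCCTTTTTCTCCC
Eef1g, chr1:215289785-215289829, plus strand: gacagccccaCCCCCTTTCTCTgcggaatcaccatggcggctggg
Eef2, chr7:9189224-9189268, minus strand: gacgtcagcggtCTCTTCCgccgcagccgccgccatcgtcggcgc
Eef1a2, chr3:188652619-188652663, minus strand: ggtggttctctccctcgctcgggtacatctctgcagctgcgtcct

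The run of Eef1a1 begins 1 base before the annotated start and that of Eef1b2 begins 2 bases after it. In Eef1g and Eef2 the runs begin 20 and 18 bases before the annotated start. Eef1a2 also has a run, of 9 bases, but it begins 23 bases before the start, outside the 20 bases searched, and is not in capitals. The search was made on the gene's own strand alone. Such a run begins within 20 bases of the start in 7763 of 18999 protein-coding genes with a promoter in the table (40.9%) and in 23 of 49 factor genes with one (46.9%), so such runs are common. Whether they are more frequent in the factor genes that rose than in the others was not tested. No promoter sequence was available for Eif3h, Eif4b, Eif4e3, Eif3e or Eef1d, so no start region is shown for them, although Eif3h and Eif4b also rose.

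Values are log2 expression values per probe set, so a difference of 1 is a doubling, and levels of different genes are not compared. The medians of the arrays lay between 6.07 and 6.20. Passing the test means an adjusted p under 0.05 from limma, with Benjamini-Hochberg adjustment over 9289 genes. Along the leading principal component the 4 legs of rats 35 and 37 (6 h to 4 d) scored from 4.47 to 12.86, against a median of -30.81 for loaded and -27.81 for unloaded legs of their window, so they lay toward the later windows. The 8 measured skeletal muscle markers had group means between 12.02 (Actn3) and 14.23 (Acta1) in all 6 groups, high on a scale that ran from 1.92 to 14.38. A numeric suffix in the sample descriptions, whose meaning is not stated, reads as a date and takes 5 codes. All 6 h to 4 d rats carry codes 1 to 4 (4 rats in code 3), while 2 rats of 5 to 8 d and 4 of 9 to 14 d carry code 3 and the other 4 later rats carry code 5. Windows and codes are therefore partly confounded, and values within code 3 are given beside the window results of several factor genes.

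Passive loading left no factor gene past the test. Over all 23 rats 0 of 54 passed, where 2.9% of all genes tested did (1.08% higher and 1.82% lower), and the differences of loaded minus unloaded legs ran from -0.15 for Eif4g3 to 0.14 for Eif4e3 with a median of 0.01. The 95% intervals reached no farther from 0 than 0.27 on the log2 scale, for Eif4g3, and 0.21 for genes other than Eif4g3 and Eif4e3, so larger average differences between the legs lay outside them. At an unadjusted p under 0.05 there were 5 genes (9.26% of the factor genes, against 18.6% of all genes). These were Eif5a, the hypusine-bearing factor that helps stalled ribosomes, Eif3b, Eif5, Eif4e3 and Eif4g3.

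**Figure D1:**
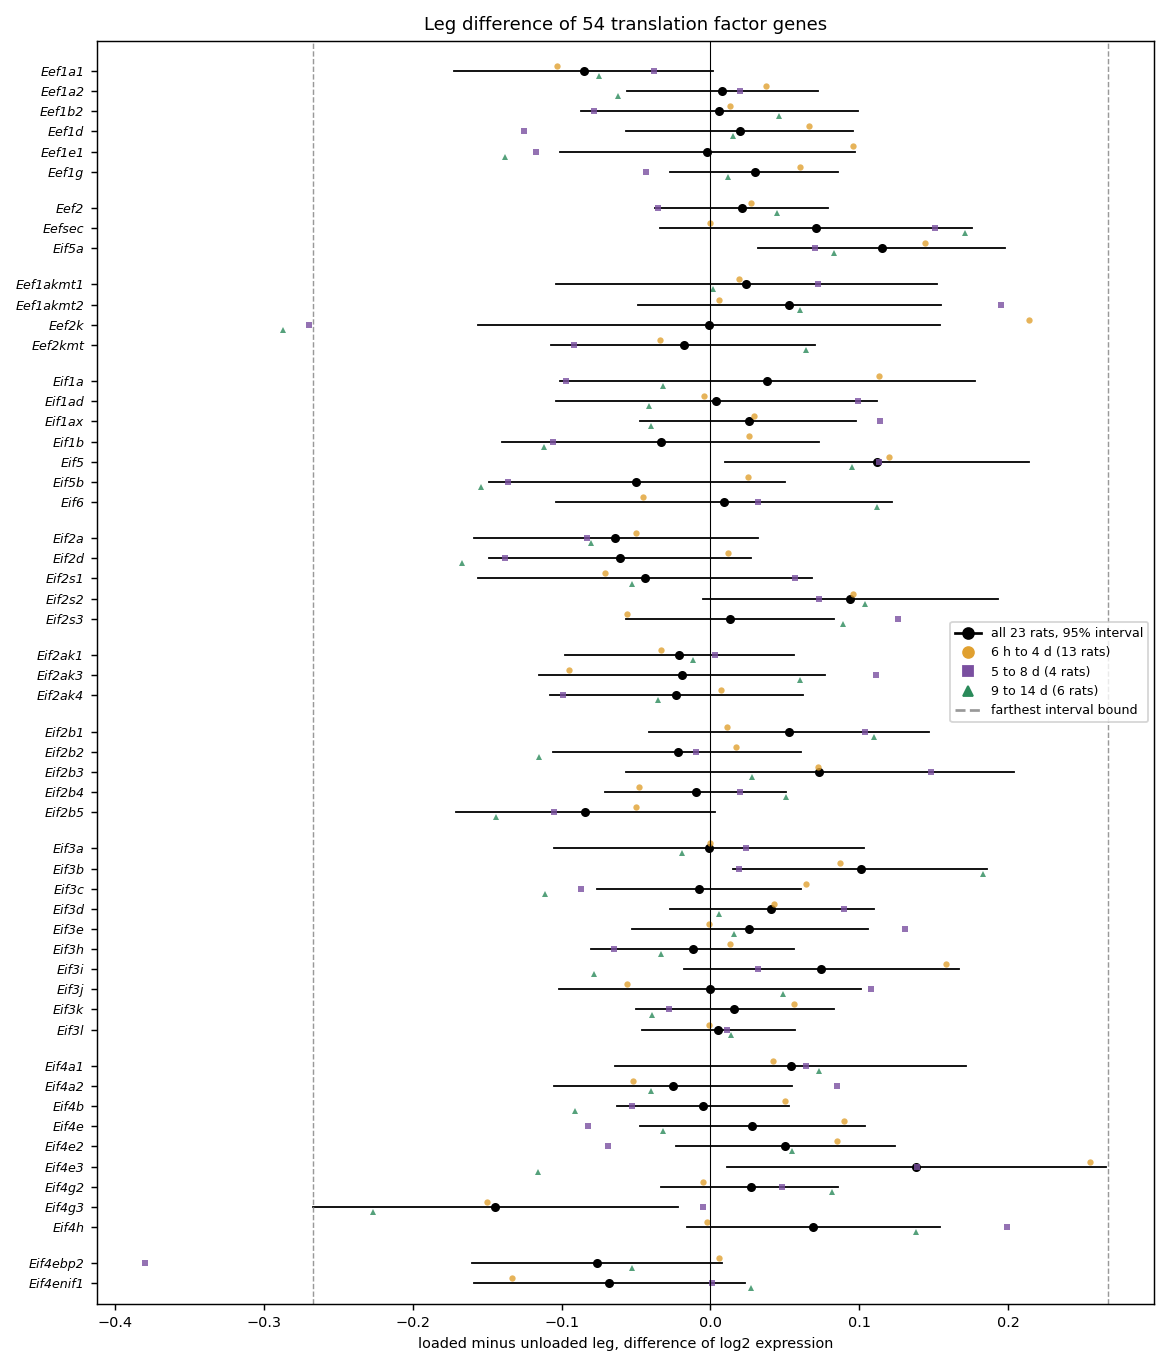
Loaded minus unloaded leg on the log2 scale for each of the 54 genes, ordered by factor group. Black points and lines give the mean over 23 rats with its 95% interval, coloured symbols the 3 windows, and dashed lines the farthest bound of any interval (0.27). All black intervals stay inside the dashed lines, and the window means that lie farthest out are those of Eif4ebp2 at 5 to 8 d and of Eef2k and Eif4e3.

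Eif5a had the smallest adjusted p of the factor genes, 0.116, with a difference of 0.12 (SE 0.04) and a higher value in the loaded leg of 16 of 23 rats. Eif3b, a core subunit of eIF3, differed by 0.10 (SE 0.04, adjusted p = 0.188) and was higher in the loaded leg of 18 of 23 rats. Eif4e3, a relative of the cap-binding protein eIF4E, differed by 0.14 (SE 0.06, adjusted p = 0.228), also higher in 18 of 23. None of these differences passed after adjustment. Eef2k, the kinase that inactivates eEF2, had the widest spread of leg differences among the factor genes, with an SD of 0.44 between rats.

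Within windows again 0 of 54 passed, where 0.0% of all genes did at 6 h to 4 d, 0.0% at 5 to 8 d and 0.269% at 9 to 14 d (0.161% higher and 0.108% lower). The unadjusted p was under 0.05 for 5, 1 and 1 factor genes in the 3 windows (9.26%, 1.85% and 1.85%, against 11.6%, 6.93% and 13.0% of all genes). Eef2k differed between the legs by 0.21 at 6 h to 4 d, -0.27 at 5 to 8 d and -0.29 at 9 to 14 d, with a loaded leg above the unloaded one in 8 of 13, 1 of 4 and 1 of 6 rats. The leg difference at 9 to 14 d minus that at 6 h to 4 d was -0.50 for Eef2k (SE 0.18, unadjusted p = 0.00949, adjusted p = 0.551). That change did not pass, and 0 of 54 passed in any comparison of leg differences between windows (0.0% of all genes in each of them). The unadjusted p of these comparisons was under 0.05 for 2 factor genes in 5 to 8 d against 6 h to 4 d (3.7%, against 6.0% of all genes). It was so for 5 in 9 to 14 d against 6 h to 4 d (9.26%, against 7.72%), and for 1 in 9 to 14 d against 5 to 8 d (1.85%, against 2.67%).

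Eif4ebp2, a repressor that sequesters eIF4E until mTORC1 phosphorylates it, had the lowest leg difference at 5 to 8 d. Its values were 10.99, 11.15, 9.87 and 9.81 in loaded legs, against 11.21, 11.14, 10.46 and 10.54 in the unloaded legs of the same rats. The loaded leg was lower in 3 of 4 rats, and most so in the pair of rats of date code 5. The difference was -0.38 (SE 0.10, adjusted p = 0.211). Within code 5 alone, the pair of rats with the largest leg differences, it was -0.66 (adjusted p = 0.047), and without rat 43 it was -0.51 (adjusted p = 0.0492). Both subsets leave out a rat with a leg difference near 0 (0.018 in rat 43), so these p-values are not independent evidence.

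Far more of these messages differed between windows than between legs. In unloaded legs Eef1b2 (1.12), Eif1a (1.04) and Eef1e1 (0.99) had the largest rises at 5 to 8 d, and in loaded legs Eef1a1 and Eef1b2 (1.03 each) and Eif4a1 (0.89) did. In loaded legs 32 factor genes were higher and 5 lower at 5 to 8 d than at 6 h to 4 d (68.5% of 54, against 39.0% of all genes: 26.9% higher and 12.0% lower). At 9 to 14 d the counts were 24 higher and 6 lower in loaded legs (55.6%, against 44.2% of all genes: 29% higher and 15.2% lower). In unloaded legs 25 were higher and 3 lower at 5 to 8 d (51.9%, against 35.9%: 23.6% higher and 12.3% lower), and 25 higher and 5 lower at 9 to 14 d (55.6%, against 45.6%: 28.7% higher and 16.9% lower). The median difference of the factor genes was 0.32 and 0.19 in loaded legs at 5 to 8 d and 9 to 14 d, and 0.28 and 0.22 in unloaded legs, where the median of all genes was 0.06, 0.08, 0.05 and 0.07. These 4 comparisons share the 6 h to 4 d arrays of each leg, and the legs share their rats.

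Between the later windows 0 of 54 passed in loaded and 0 in unloaded legs (0.226% of all genes in each, with 0.161% higher and 0.0646% lower in loaded and 0.183% higher and 0.0431% lower in unloaded legs), with 13 and 11 at an unadjusted p under 0.05. With another normalisation between arrays (cyclic loess) the 9 to 14 d counts became 20 higher and 15 lower in loaded legs (22.8% and 20.4% of all genes) and 21 higher and 10 lower in unloaded legs (24.1% and 21.6%), so the share of calls that were higher was 57.1% in place of 80.0%, and 67.7% in place of 83.3%. The same share over all genes became 52.8% in place of 65.6% in loaded and 52.8% in place of 62.9% in unloaded legs. In these bulk samples fewer cells of a type and less RNA per cell cannot be told apart. Within date code 3 the test passed 3 factor genes in loaded legs (4.88% of all genes) and 11 in unloaded legs (9.73%) at 9 to 14 d against 6 h to 4 d, with 4 rats in each window, and the 30 genes called in each leg had the same sign there. At 5 to 8 d against 6 h to 4 d code 3 leaves 2 rats against 4, and 0 genes passed in loaded legs (0.0% of all genes) and 1 in unloaded legs (0.172%). All 37 genes called in loaded legs had the same sign there, and 26 of 28 in unloaded legs, with Eef1akmt2 and Eif2s2 turned.

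With the date code as a block fewer calls passed. At 9 to 14 d 19 factor genes did in loaded legs (20% of all genes), of which 18 were called without the block: Eef1a1, Eef1b2, Eef1g, Eef2, Eef1akmt1, Eif5a, Eif2s3, Eif2ak3, Eif2b2, Eif3b, Eif3h, Eif3j, Eif3k, Eif3l, Eif4a1, Eif4e2, Eif4g3 and Eif5. In unloaded legs 16 did (23.4%): Eef1a1, Eef1b2, Eef1g, Eef2, Eef1akmt1, Eif1a, Eif2ak3, Eif2b2, Eif3h, Eif3i, Eif3j, Eif3k, Eif3l, Eif4a1, Eif4e2 and Eif5. At 5 to 8 d Eef1a1, Eef1b2, Eef2, Eif3b, Eif3c, Eif3h and Eif3l passed in loaded legs (7, against 9.15% of all genes), and Eef1a1, Eef1b2, Eef1g, Eef2, Eif1a, Eif3h, Eif3k, Eif3l and Eif4e2 in unloaded legs (9, against 8.15%). The other window calls of factor genes given below did not pass with this block. For the ribosomal protein genes, the other lists and the cell type markers, results of single genes with this block were not examined.

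**Figure D2:**
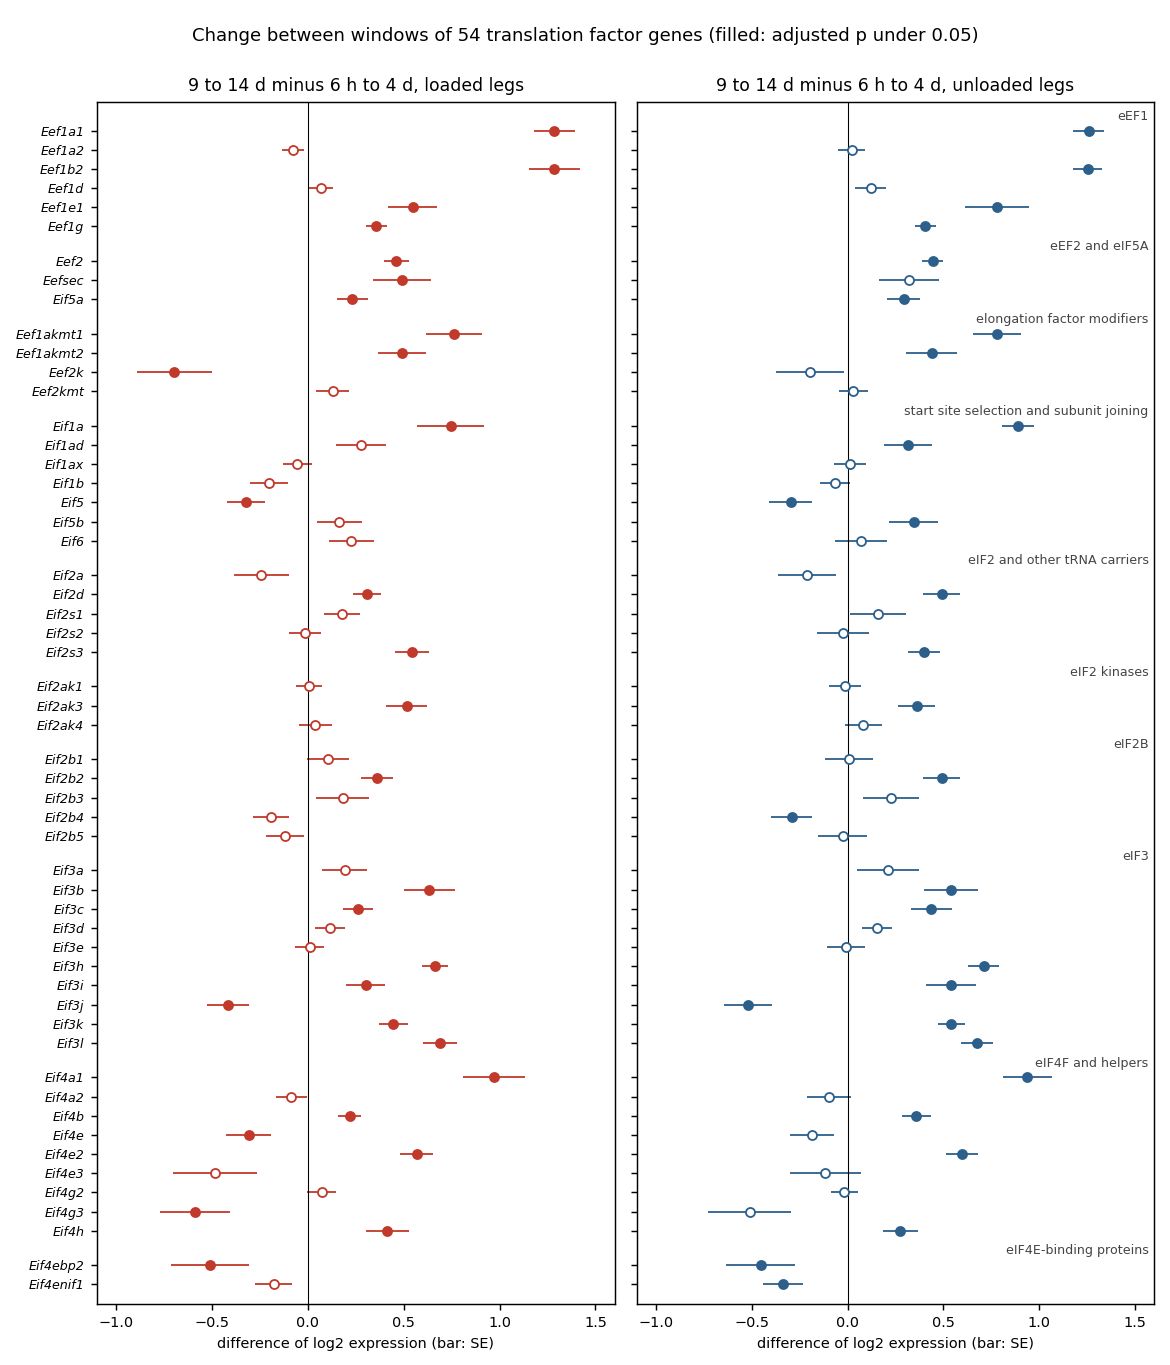
Difference between 9 to 14 d and 6 h to 4 d on the log2 scale, with its standard error, for the 54 genes by factor group, in loaded legs (left) and unloaded legs (right). Filled points passed the test. Eef1a1, Eef1b2 and Eif4a1 lie farthest to the right in both legs, and Eif3j, Eif4ebp2 and Eif5 are filled to the left of 0 in both.

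Of the 6 eEF1 genes 4 rose at 9 to 14 d in each leg and none passed lower (66.7%, against 44.2% of all genes in loaded and 45.6% in unloaded legs). Eef1a1 had the largest rise of the factor genes in unloaded legs at 9 to 14 d. In loaded legs it lay between 11.76 and 12.73 (median 12.32, 13 rats) at 6 h to 4 d. Its values were 13.04, 13.30, 13.63 and 13.42 at 5 to 8 d, and between 13.44 and 13.74 (median 13.59, 6 rats) at 9 to 14 d. In unloaded legs the corresponding values were 12.15 to 12.86 (median 12.38), then 13.29, 13.39, 13.49 and 13.37, then 13.55 to 13.78 (median 13.69). No leg of either later window fell within the range of 6 h to 4 d. The rise at 9 to 14 d was 1.28 in loaded legs (SE 0.11, 2.44-fold, adjusted p = 1.33e-08) and 1.26 in unloaded legs (SE 0.08, 2.39-fold, adjusted p = 9.95e-11). A second probe set of the gene gave 1.32 and 1.28. Within date code 3 the rise was 1.10 in loaded and 1.20 in unloaded legs.

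**Figure D3:**
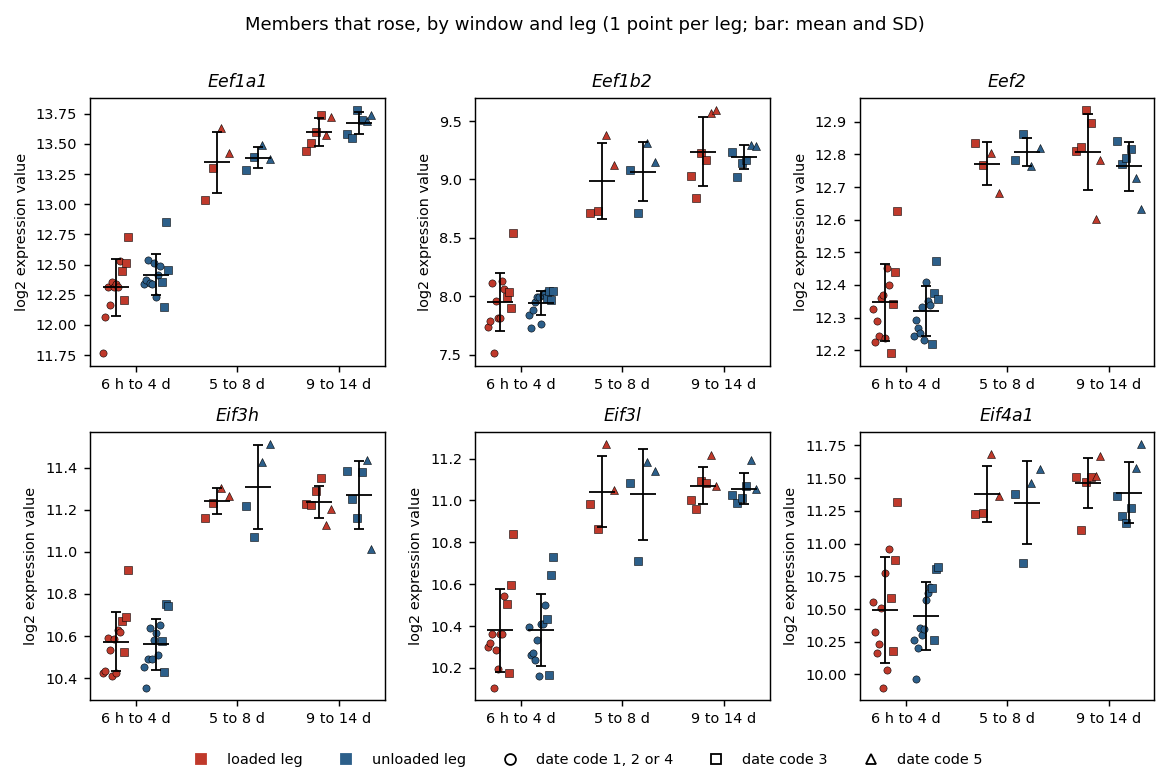
Log2 values of 6 genes that rose, with 1 point for each leg, loaded left of unloaded in each window, symbols for date codes, and bars for the mean and SD. For Eef1a1 and Eef1b2 every leg of the later windows lies above every leg of 6 h to 4 d, while for Eif4a1 the highest loaded leg of 6 h to 4 d (11.32) lies inside the later range.

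Eef1a2 behaved differently from its paralogue. It averaged 12.86 ± 0.09, 12.61 ± 0.13 and 12.78 ± 0.06 over the 3 windows in loaded legs (SD, n = 13, 4 and 6) and 12.82 ± 0.09, 12.59 ± 0.20 and 12.84 ± 0.12 in unloaded legs. It fell at 5 to 8 d by 0.25 in loaded legs (adjusted p = 0.00636) and by 0.23 in unloaded legs (adjusted p = 0.0277). At 9 to 14 d the differences were -0.08 and 0.02 and did not pass. The calls at 5 to 8 d rest on few rats: leaving out rat 53 gave an adjusted p of 0.0506 in loaded and 0.0855 in unloaded legs, and leaving out rat 41 gave 0.176 in unloaded legs. With the date code as a block neither passed, with differences of -0.25 (adjusted p = 0.0851) and -0.32 (adjusted p = 0.0699).

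The log2 ratio of Eef1a1 to Eef1a2 within an array removes what both share on that array. Its change at 9 to 14 d was 1.36 in loaded legs and 1.24 in unloaded legs, with no overlap between the windows. An exact two-sided permutation test over rats gave p = 7.4e-05 in each leg, the smallest it can give with these group sizes (0.00015 after adjustment over 4 comparisons). At 5 to 8 d the change was 1.28 and 1.20 (exact permutation p = 0.00084 each, again the smallest possible, adjusted 0.00084). Within date code 3 it was 1.21 and 1.23 at 9 to 14 d, 4 rats against 4 without overlap, where p = 0.029 is the smallest that the exact permutation test can give. The ratio shows unequal change of the paralogues, not their relative amounts. Eef1a1 alone already separated these windows in the same legs, so the test of the ratio is not independent of that rise.

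Eef1b2, the exchange factor that recharges eEF1A with GTP, rose as much as Eef1a1. In loaded legs it lay between 7.51 and 8.54 (median 7.96) at 6 h to 4 d, at 8.71, 8.73, 9.38 and 9.13 at 5 to 8 d, and between 8.85 and 9.59 (median 9.20) at 9 to 14 d. Unloaded legs lay between 7.73 and 8.04 (median 7.99), at 9.08, 8.71, 9.31 and 9.15, and between 9.02 and 9.30 (median 9.20). The later legs again lay above all legs of 6 h to 4 d. The rise at 9 to 14 d was 1.28 in loaded legs (SE 0.13, adjusted p = 1.39e-07) and 1.25 in unloaded legs (SE 0.08, adjusted p = 9.95e-11), and within code 3 it was 0.95 and 1.13. Eef1g, the scaffold of the same exchange complex, rose by 0.36 and 0.41, without overlap in either leg. Eef1d, the other exchange subunit, differed by 0.07 and 0.12 and did not pass in any of the 4 comparisons of later windows with 6 h to 4 d. Eef1e1, better known as a component of the multi-tRNA-synthetase complex, rose by 0.55 in loaded legs (adjusted p = 0.00125) and 0.78 in unloaded legs (adjusted p = 6.19e-04). Within code 3 it differed by 0.23 and 0.40, and with the code as a block both calls ended (0.21 and 0.34, adjusted p = 0.331 and 0.223).

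All 3 genes grouped with eEF2 passed higher in loaded legs at 9 to 14 d, and Eef2 and Eif5a did so in unloaded legs (29% and 28.7% of all genes). Eef2 rose by 0.46 in loaded legs (SE 0.07, 1.38-fold, adjusted p = 9.32e-06) and by 0.44 in unloaded legs (SE 0.05, 1.36-fold, adjusted p = 1.10e-06), and within code 3 by 0.47 and 0.45. Unloaded legs of the later windows did not overlap those of 6 h to 4 d: the lowest later value was 12.63 and the highest of 6 h to 4 d was 12.47. Eif5a rose by 0.23 and 0.29. The loaded-leg call of Eif5a was lost without rat 45, 47 or 49 (adjusted p = 0.0571, 0.0558 and 0.0712). Eefsec, which delivers selenocysteine tRNA, rose by 0.49 in loaded legs and differed by 0.32 in unloaded legs (adjusted p = 0.0943).

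Among the enzymes that modify elongation factors, Eef2k was lower in later windows, with fitted falls in loaded legs at both. In loaded legs it lay between 9.10 and 10.26 (median 10.01) at 6 h to 4 d, at 8.03, 9.01, 8.44 and 8.86 at 5 to 8 d, and between 8.47 and 9.48 (median 9.08) at 9 to 14 d. Unloaded legs lay between 9.03 and 10.28 (median 9.54), at 8.00, 9.61, 8.84 and 8.97, and between 8.97 and 9.87 (median 9.27). The loaded legs of 5 to 8 d lay below all loaded legs of 6 h to 4 d, and in unloaded legs the windows overlapped. Eef2k fell by 1.16 in loaded legs at 5 to 8 d (SE 0.23, adjusted p = 4.38e-04) and by 0.70 at 9 to 14 d (SE 0.20, adjusted p = 0.00625). In unloaded legs it fell by 0.68 at 5 to 8 d (adjusted p = 0.0134, but 0.128 without rat 41, where the difference was -0.40) and differed by -0.20 at 9 to 14 d (adjusted p = 0.383). With the date code as a block none of these calls passed: the loaded difference was -0.96 at 5 to 8 d (adjusted p = 0.068) and -0.48 at 9 to 14 d (adjusted p = 0.243), and the unloaded one at 5 to 8 d was -0.69 (adjusted p = 0.167). The lysine methyltransferases of eEF1A, Eef1akmt1 and Eef1akmt2, passed higher at 9 to 14 d in both legs, but their means at 6 h to 4 d, 5.98 and 5.65 in loaded and 5.96 and 5.64 in unloaded legs, lay under the lowest array median, so no size is given. They were above the median of their own array on 27 and 11 of 46 arrays, so they entered the test largely through the groups where they are high and these calls are not independent of the filter. Eef2kmt, which methylates eEF2, was as dim (above the median on 4 arrays) and did not pass.

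**Figure D4:**
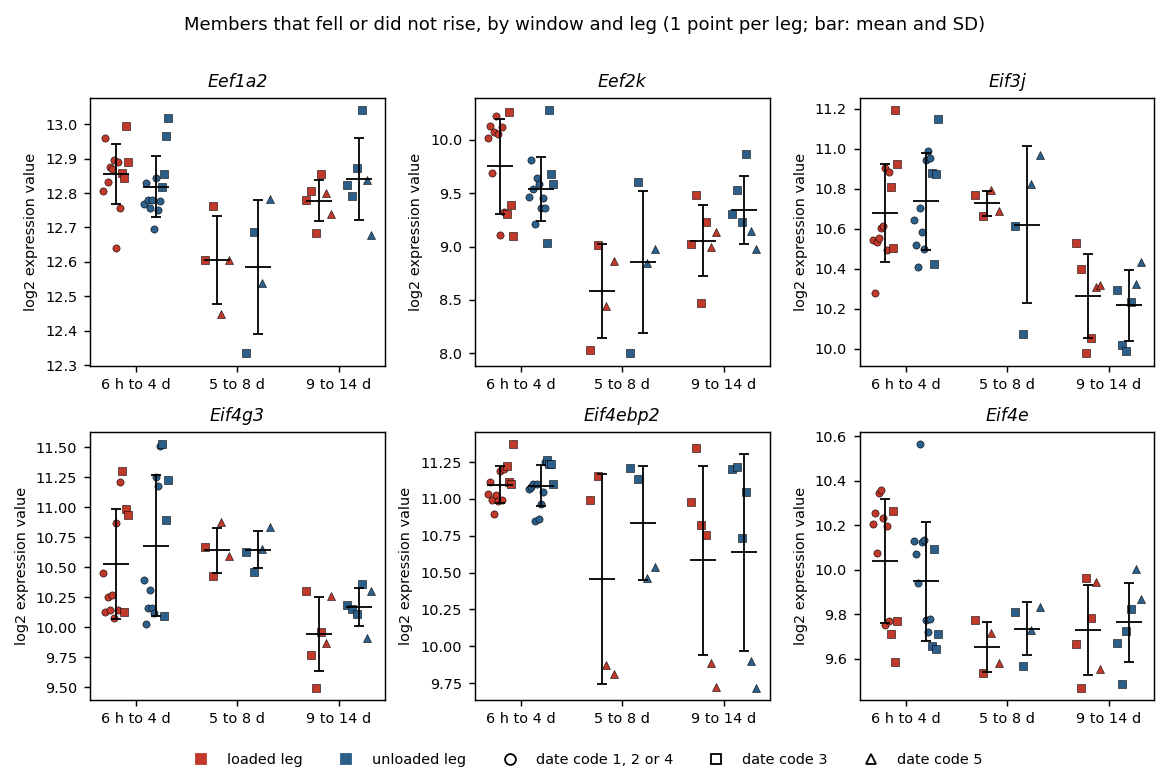
Log2 values of 6 genes that fell or did not rise, with 1 point for each leg, loaded left of unloaded, symbols for date codes, and bars for the mean and SD. The low values of Eif4ebp2 in the later windows are those of date code 5, Eef1a2 is lowest at 5 to 8 d, and the loaded legs of 6 h to 4 d spread widely for Eef2k, Eif4g3 and Eif4e.

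Of the 10 eIF3 genes 6 rose and 1 fell in each leg at 9 to 14 d (70%, against 44.2% of all genes in loaded and 45.6% in unloaded legs). The median difference was 0.28 in loaded and 0.49 in unloaded legs. Over the 3 windows Eif3h lay between 10.41 and 10.92 (median 10.59), at 11.16, 11.23, 11.30 and 11.27, and between 11.13 and 11.35 (median 11.22) in loaded legs. In unloaded legs it lay between 10.36 and 10.75 (median 10.58), at 11.22, 11.07, 11.43 and 11.51, and between 11.01 and 11.44 (median 11.31). It rose by 0.66 in loaded legs (SE 0.07, adjusted p = 1.64e-07) and 0.71 in unloaded legs (SE 0.08, adjusted p = 2.63e-07), without overlap, and within code 3 by 0.57 and 0.67. Its second, dimmer probe set gave 0.95 and 0.92. Eif3l rose by 0.69 and 0.68 and Eif3k by 0.45 and 0.54, both also without overlap in either leg. Eif3b (0.63 and 0.54), Eif3c (0.26 and 0.44) and Eif3i (0.30 and 0.54) rose with overlapping groups.

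Eif3j, a loosely held subunit that binds near the decoding site, was the eIF3 gene that fell. In loaded legs its values lay between 10.28 and 11.19 (median 10.61) at 6 h to 4 d, at 10.77, 10.66, 10.79 and 10.69 at 5 to 8 d, and between 9.98 and 10.53 (median 10.31) at 9 to 14 d. In unloaded legs they lay between 10.41 and 11.15 (median 10.71), at 10.62, 10.07, 10.82 and 10.97, and between 9.99 and 10.43 (median 10.27). The groups overlapped in both legs. At 9 to 14 d it fell by 0.41 in loaded legs (SE 0.11, adjusted p = 0.00361) and by 0.52 in unloaded legs (SE 0.12, adjusted p = 0.00191). Within code 3 the differences were larger, -0.62 and -0.70. Eif3a, Eif3d and Eif3e differed at 9 to 14 d by 0.19, 0.12 and 0.01 in loaded legs and by 0.21, 0.15 and -0.01 in unloaded legs, and none passed. At 5 to 8 d 8 of 10 eIF3 genes passed higher in loaded legs and 6 of 10 in unloaded legs (26.9% and 23.6% of all genes). Eif3a and Eif3e were among the loaded calls, but not with the date code as a block.

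The 9 genes of eIF4F and its helpers were divided. In loaded legs 4 rose and 2 fell at 9 to 14 d (66.7%, against 44.2% of all genes). In unloaded legs 4 rose and none passed lower (44.4%, close to the 45.6% of all genes). Eif4a1, an RNA helicase that unwinds the 5′ ends of messages, lay over the 3 windows between 9.90 and 11.32 (median 10.51), at 11.23, 11.23, 11.68 and 11.36, and between 11.10 and 11.67 (median 11.51) in loaded legs. In unloaded legs it lay between 9.96 and 10.82 (median 10.35), at 11.38, 10.85, 11.46 and 11.57, and between 11.16 and 11.76 (median 11.31). Only 1 loaded leg of 6 h to 4 d, that of rat 37, exceeded 10.96. It rose by 0.97 in loaded legs (SE 0.16, 1.96-fold, adjusted p = 5.01e-05) and by 0.94 in unloaded legs (SE 0.13, 1.92-fold, adjusted p = 4.09e-06), and within code 3 by 0.66 and 0.61. Its close relative Eif4a2 differed by -0.08 and -0.10 and did not pass in any of the 4 comparisons. Eif4b and Eif4h, which stimulate the helicase, rose by 0.22 and 0.41 in loaded legs and by 0.36 and 0.28 in unloaded legs.

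The cap-binding proteins also differed from each other. Eif4e2, the homologue that binds caps without joining eIF4G and is known for repressing translation, rose by 0.57 in loaded legs (SE 0.09, adjusted p = 1.96e-05) and 0.60 in unloaded legs (SE 0.08, adjusted p = 4.59e-06), without overlap. Eif4e itself averaged 10.04 ± 0.28, 9.65 ± 0.11 and 9.73 ± 0.20 over the 3 windows in loaded legs (SD, n = 13, 4 and 6) and 9.95 ± 0.27, 9.74 ± 0.12 and 9.76 ± 0.18 in unloaded legs. It fell in loaded legs by 0.39 at 5 to 8 d (adjusted p = 0.0284) and by 0.31 at 9 to 14 d (adjusted p = 0.0369), and differed in unloaded legs by -0.19 at 9 to 14 d (adjusted p = 0.184). The later of the loaded-leg calls was lost when any 1 of 11 rats was left out, with adjusted p between 0.0524 and 0.0978, and the earlier one without rat 43, 53 or 55 (adjusted p = 0.0852, 0.0526 and 0.0797). Eif4e3 fell at 5 to 8 d by 0.74 in loaded legs (adjusted p = 0.0236) and 0.62 in unloaded legs (adjusted p = 0.0259). Leaving out rat 41 or rat 53 ended these calls in either leg, with adjusted p of 0.0839 and 0.0943 in loaded legs and 0.12 and 0.101 in unloaded legs.

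The scaffold Eif4g3 fell by 0.59 in loaded legs at 9 to 14 d (SE 0.19, adjusted p = 0.0128) and differed by -0.51 in unloaded legs (SE 0.22, adjusted p = 0.0581). At 6 h to 4 d its values formed separate clusters. In loaded legs 8 lay between 10.08 and 10.45 and 5 between 10.87 and 11.30, and in unloaded legs 7 lay between 10.03 and 10.39 and 6 between 10.89 and 11.53. The higher cluster was made of rats 23, 29, 31, 35 and 37 in loaded legs, and of the same rats and rat 27 in unloaded legs. At 9 to 14 d loaded legs ranged from 9.50 to 10.30 and unloaded legs from 9.91 to 10.36, close to the lower cluster. Eif4g2, a relative that does not bind eIF4E, differed by 0.07 and -0.02 and did not pass.

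Both genes whose proteins bind eIF4E and keep it from eIF4G passed lower in unloaded legs at 9 to 14 d (16.9% of all genes), and Eif4ebp2 did in loaded legs (15.2%). Eif4ebp2 lay between 9.72 and 11.35 (median 10.79) in loaded legs at 9 to 14 d, against 10.90 to 11.37 (median 11.10) at 6 h to 4 d. In unloaded legs it lay between 9.72 and 11.22 (median 10.89), against 10.85 to 11.26 (median 11.10). The low values were those of the pair of rats of date code 5, between 9.72 and 9.88 in loaded and between 9.72 and 9.90 in unloaded legs, while the 4 rats of code 3 lay between 10.75 and 11.35 and between 10.73 and 11.22. The fall was 0.51 in loaded legs (SE 0.20, adjusted p = 0.0439) and 0.45 in unloaded legs (SE 0.18, adjusted p = 0.0423), but within code 3 the differences were -0.23 and -0.16 and with the code as a block neither passed (adjusted p = 0.168 and 0.169). The call ended without any 1 of 14 rats in loaded and of 12 in unloaded legs, and rats 57 and 59 moved it most, with differences of -0.37 and -0.34 in loaded and -0.30 and -0.27 in unloaded legs. At 5 to 8 d Eif4ebp2 also fell in loaded legs, by 0.64 (adjusted p = 0.0344, but 0.194 and 0.204 without rat 53 or 55), where the difference within code 3 was -0.13. Eif4enif1, which carries eIF4E into the nucleus, fell by 0.34 in unloaded legs (SE 0.10, adjusted p = 0.0111) and differed by -0.18 in loaded legs (adjusted p = 0.131). With the code as a block the unloaded difference was -0.19 (adjusted p = 0.299).

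Of the 5 carriers of initiator tRNA 2 rose in each leg at 9 to 14 d and none passed lower (40%, against 44.2% of all genes passing in loaded and 45.6% in unloaded legs). Eif2s3, the tRNA-binding subunit of eIF2, rose by 0.54 in loaded legs (SE 0.09, adjusted p = 4.07e-05) and 0.40 in unloaded legs (SE 0.08, adjusted p = 5.32e-04), without overlap. Within code 3 it differed by 0.42 and 0.27, and with the code as a block the loaded call passed and the unloaded one did not (0.26, adjusted p = 0.0906). Eif2d, which can bring tRNA to the ribosome without eIF2, rose by 0.31 and 0.49. Eif2s1, the subunit whose phosphorylation shuts initiation down, averaged 9.87 ± 0.18, 10.38 ± 0.22 and 10.05 ± 0.15 over the windows in loaded legs and 9.94 ± 0.26, 10.32 ± 0.49 and 10.10 ± 0.25 in unloaded legs. It rose by 0.51 at 5 to 8 d in loaded legs (adjusted p = 8.93e-04, or 0.108 with the date code as a block, where the difference was 0.38), while its differences at 9 to 14 d, 0.18 and 0.16, did not pass. Eif2s2 rose at 5 to 8 d by 0.38 in loaded and 0.40 in unloaded legs and differed by -0.02 in each at 9 to 14 d, and with the date code as a block its unloaded difference at 5 to 8 d was -0.01 (adjusted p = 0.973). Eif2a differed by -0.24 and -0.21 and did not pass.

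Of the 3 kinases that phosphorylate eIF2, 1 passed higher in each leg at 9 to 14 d (33.3%). Of the 5 genes of eIF2B, the exchange factor that the phosphorylated form blocks, 1 rose in loaded legs (20%). In unloaded legs 1 of these rose and 1 fell (40%). Of all genes 44.2% passed in loaded and 45.6% in unloaded legs, and with so few genes such shares say little. At 5 to 8 d 3 of 5 eIF2B genes (Eif2b1, Eif2b2 and Eif2b3) and 1 of 3 kinases (Eif2ak1) passed higher in loaded legs (26.9% of all genes). In unloaded legs 0 passed there, and none of the loaded calls passed with the date code as a block. Eif2ak3, the PERK kinase of the endoplasmic reticulum, rose at 9 to 14 d by 0.51 in loaded legs (SE 0.11, adjusted p = 6.02e-04) and 0.36 in unloaded legs (SE 0.10, adjusted p = 0.00416). It is dim, with group means between 6.37 and 6.88, so the size is uncertain. Eif2ak1 and Eif2ak4, which sense haem and amino acid shortage, differed by 0.01 and 0.04 in loaded legs and by -0.01 and 0.08 in unloaded legs. Among the 5 eIF2B subunits Eif2b2 rose by 0.36 and 0.49, and Eif2b4 fell in unloaded legs by 0.29 (adjusted p = 0.0284, or 0.0818, 0.0685 and 0.0701 without rat 49, 51 or 59). Eif2b5, the catalytic subunit, averaged 8.63 ± 0.19, 8.79 ± 0.13 and 8.51 ± 0.23 over the windows in loaded legs and 8.68 ± 0.25, 8.89 ± 0.41 and 8.65 ± 0.16 in unloaded legs, and did not pass in any of the 4 comparisons. With the date code as a block it was lower in loaded legs at 9 to 14 d, with a difference of -0.40 (adjusted p = 0.00669), and the difference in unloaded legs was -0.34 (adjusted p = 0.105).

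Of the 7 genes of start site selection and subunit joining 1 rose and 1 fell in loaded legs at 9 to 14 d (28.6%, against 44.2% of all genes). In unloaded legs 3 rose and 1 fell (57.1%, against 45.6%). Eif1a, a scanning factor, lay over the 3 windows between 8.38 and 9.87 (median 8.88), at 9.68, 9.24, 10.02 and 9.76, and between 9.01 and 10.28 (median 9.52) in loaded legs. Unloaded legs lay between 8.43 and 8.87 (median 8.76), at 9.58, 9.50, 10.02 and 9.99, and between 9.44 and 9.75 (median 9.66). The windows did not overlap in unloaded legs, and in loaded legs the highest value of 6 h to 4 d was that of rat 37, apart from the other 12 at up to 9.03. It rose by 0.75 in loaded legs (SE 0.18, adjusted p = 0.0016) and 0.89 in unloaded legs (SE 0.08, adjusted p = 2.79e-08). With the date code as a block the differences were 0.47 and 0.78, and the loaded one did not pass (adjusted p = 0.18). The near-identical Eif1ax differed by -0.05 and 0.01 and did not pass; probes of such close copies may share transcripts, so both values are uncertain. Eif5, which makes eIF2 hydrolyse its GTP at the start codon, fell by 0.32 in loaded legs (adjusted p = 0.0113) and 0.30 in unloaded legs (adjusted p = 0.0353), and within code 3 it differed by -0.41 and -0.40. The unloaded call was lost without rat 17, 29, 47, 49 or 51, with adjusted p between 0.0529 and 0.0961. Eif5b, which joins the subunits, rose by 0.34 in unloaded legs and differed by 0.17 in loaded legs. Eif1ad also passed higher in unloaded legs at 9 to 14 d, but its sign turned with the date code as a block, where 29 of the 30 genes called in these legs kept theirs. Eif6, which keeps free large subunits from joining, rose at 5 to 8 d by 0.52 in loaded and 0.44 in unloaded legs, and its differences at 9 to 14 d, 0.23 and 0.07, did not pass. The unloaded call of Eif6 was lost without rat 41, 53 or 55 (adjusted p = 0.127, 0.0661 and 0.174).

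Groups that do not overlap between 9 to 14 d and 6 h to 4 d were found for 8 factor genes in loaded legs and 11 in unloaded legs, all higher (5.29% and 7.35% of all genes were higher without overlap, 1.95% and 2.52% lower). In loaded legs these were Eef1a1, Eef1b2, Eef1g, Eif2s3, Eif3h, Eif3k, Eif3l and Eif4e2. In unloaded legs Eef2, Eif1a and Eif4a1 stood beside them. Without rats 35 and 37 the calls in loaded legs were 27 higher and 6 lower (32.1% and 17.2% of all genes), and in unloaded legs 26 higher and 2 lower (31.6% and 19.4%). The unloaded falls that passed without these rats were those of Eif3j (-0.47, adjusted p = 0.00353) and Eif4enif1 (-0.34, adjusted p = 0.0139), while Eif2b4, Eif4ebp2 and Eif5 had adjusted p of 0.0549, 0.0597 and 0.0568. Of the loaded falls that of Eif4ebp2 did not pass (adjusted p = 0.0663).

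Among 8 measured factor genes known to have TOP messages in mammals (Eef1a1, Eef1b2, Eef1d, Eef1g, Eef2, Eif3e, Eif3h and Eif4b) 6 rose in each leg at 9 to 14 d and none passed lower, with a median of 0.41 in loaded and 0.42 in unloaded legs. That is 75% in each leg, where 29% of all genes rose in loaded and 28.7% in unloaded legs. Eef1d and Eif3e were the exceptions at 9 to 14 d. At 5 to 8 d 7 of 8 rose in loaded legs, Eif3e among them, and 6 of 8 in unloaded legs. The values that follow are again for 9 to 14 d. The cytosolic ribosomal protein genes, another family of TOP messages, were added after values had been seen: 64 of 68 rose and 1 fell in each leg, with medians of 0.57 and 0.65. Of 13 genes of mTORC1 and its translation targets 6 rose and 3 fell in loaded legs (69.2%, against 44.2% of all genes). In unloaded legs 5 rose and 2 fell (53.8%, against 45.6%, so close to the share over all genes). In unloaded legs the rises of Rps6 (0.63, adjusted p = 6.69e-08), a small-subunit protein phosphorylated downstream of mTORC1, and of the kinase Rps6kb2 (0.49) were the largest. Pdcd4, which inhibits the eIF4A helicase, and Tsc2, an inhibitor of mTORC1, were also among the rises (0.40 and 0.27). Ddit4, an inhibitor of mTORC1 induced by stress and glucocorticoids, fell by 1.78 (SE 0.36, adjusted p = 4.21e-04), and Tsc1, the partner of Tsc2, fell by 0.30. Ddit4 averaged 7.69 ± 0.46 in unloaded legs at 9 to 14 d, against 9.47 ± 0.98 in those of 6 h to 4 d (SD, n = 6 and 13).

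In the remaining lists unloaded legs at 9 to 14 d gave 2 rises of 9 among poly(A)-binding and initiation partners, Abcf1 (0.62), which binds eIF2, and Paip2 (0.21), an inhibitor of the poly(A)-binding protein. Of 5 genes of termination and recycling Etf1, the release factor eRF1, rose by 0.38. Of 6 mitochondrial translation factors 2 fell, Gfm1 (by 0.47), the mitochondrial counterpart of eEF2, and Mtif2 (by 0.41), that of initiation factor 2, and none rose. In loaded legs the counts were 1 higher, 1 higher, and 1 higher with 2 lower in these 3 lists, and none passed between the legs over all rats. Of all genes 28.7% rose and 16.9% fell in unloaded legs, and 29% and 15.2% in loaded legs. Rises were no more frequent in the poly(A) list (22.2% in unloaded and 11.1% in loaded legs) or the termination list (20% in each leg).

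Markers of other cell types moved with the windows. Of all genes 29% rose and 15.2% fell in loaded legs at 9 to 14 d, and 28.7% and 16.9% in unloaded legs. At 5 to 8 d these shares were 26.9% and 12% in loaded legs, and 23.6% and 12.3% in unloaded legs. Of 10 macrophage markers 4 rose in loaded and 5 in unloaded legs at 9 to 14 d, and their summed linear level lay between 2005 and 9801 in loaded legs (against 2105 to 5202 at 6 h to 4 d) and between 2485 and 13782 in unloaded legs (against 2047 to 4494). At 5 to 8 d the sum lay between 1759 and 3483 in loaded and between 1416 and 3076 in unloaded legs, where Eef1a1 and Eef1b2 were also above all legs of 6 h to 4 d. The sum of 4 measured satellite cell markers lay between 1541 and 4146 in loaded and between 1907 and 3241 in unloaded legs at 9 to 14 d, against 780 to 2992 and 659 to 3000. Of these Myf5 and Myod1, myogenic transcription factors, rose and Cdh15 fell in both legs. Of 8 skeletal muscle markers 5 fell in each leg, with sums of 74955 to 88750 in loaded legs (against 80020 to 112018) and 76652 to 93450 in unloaded legs (against 85735 to 113720). Of 8 fibroblast markers 1 fell in loaded and 2 in unloaded legs, and of 5 endothelial markers 2 fell in each, with sums of 8161 to 15083 and 8324 to 12917 for fibroblasts and of 891 to 1147 and 887 to 1285 for endothelium at 9 to 14 d, against 8105 to 18724 and 7832 to 17692, and 928 to 1432 and 953 to 1631, at 6 h to 4 d. At 5 to 8 d 4 of 8 fibroblast markers fell in loaded legs (median difference -1.01) and 7 of 8 in unloaded legs (median -1.15), with sums of 6440 to 10996 and 6049 to 9923. Of the skeletal muscle markers 3 fell in each leg there, with sums of 80884 to 88374 in loaded and 68143 to 90910 in unloaded legs, and of the macrophage markers 1 fell in each. Of 4 satellite cell markers 2 rose and 1 fell at 5 to 8 d in each leg, and none of 5 endothelial markers passed. No marker was at 0, a value this normalisation does not give. The part of these shifts in the results for factor genes was not tested.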

How the data were processed

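RNA from both legs of 23 rats was read on 46 single-colour arrays. The authors deposited 1 log2 value for each of 26208 probe sets, made with RMA (version not given) per the submitters' processing notes. RMA quantile-normalises the arrays, which can remove shifts shared by most transcripts, and no detection call was used, so signal over background is unknown. Genes were named from the platform annotation. Of 15411 listed probe sets 15088 have 1 symbol (14317 genes), 323 have several and were left out. No factor gene lies on the latter.

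Legs were paired by consecutive label numbers, an inference. As a check, the 2 legs of a rat departed from their groups' averages with a correlation over 0.1 in 21 of 23 rats (median r = 0.60, lowest -0.35). Rats are named by the number of the unloaded leg. P-values of window comparisons rest on the spread of values between rats, and those of leg comparisons on the spread of leg differences between rats.

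The test was limma's moderated two-sided one (version 3.58.1, R 4.3.3), adjusted over 9289 genes at a threshold of 0.05. The rat was a block for legs, in a fit of all arrays, and windows were fitted separately for each leg. The code was checked on simulated data. Exact permutation tests used scipy 1.17.1 in Python 3.11.15. In advance 24 genes were singled out by rule. They are the called genes with the 8 largest rises and falls at 9 to 14 d in unloaded legs, those with the 3 largest in other window comparisons, and a list of central factors (Eif4g1 of that list is not analysed here). Values in every group are given for some of them and differences for most of the rest. All others are described by their group. Alternatives were cyclic loess, filters, probe set means, array weights, date code, pairing and left-out rats. The genes and lists were chosen with earlier results of these data known.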

Additional observations from a re-analysis of the deposited data

Results flagged for a closer look

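Of 96 groups of 4 to 6 legs examined for the 24 genes singled out by rule, 2 held a leg far from the others. By chance about 1 in 20 such groups is flagged. Eif2s1 in unloaded legs at 5 to 8 d was 9.58 in rat 43, where the other 3 lay between 10.54 and 10.60. Eif4a1 in loaded legs at 9 to 14 d was 11.10 in rat 47, where the other 5 lay between 11.47 and 11.67.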

How the results depend on the processing

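With no replicate block and with the rat as a random block 0 of 54 passed in each of the 7 comparisons of legs. As the main count was also 0 in each, this does not show whether the inferred pairing matters. With array quality weights the counts became 1 over all rats (Eif4ebp2; 9.43% of all genes), 7 at 5 to 8 d (12.7%) and 6 for the leg difference at 5 to 8 d minus that at 6 h to 4 d (5.66%), and 1 in loaded (1.46%) and 19 in unloaded legs (23.8%) at 9 to 14 d against 5 to 8 d; the cause was not tested. Without rats 21 and 27, 1 passed over all rats (Eif5, 0.15, adjusted p = 0.047; 4.72% of all genes), and within date code 5, 1 at 5 to 8 d (Eif4ebp2; 1.52%). Leaving out 1 rat gave 0 to 1 over all rats (1 without rat 23, Eif4e3) and 0 to 1 at 5 to 8 d (1 without rat 43), and 0 to 0 in the other leg comparisons. For 5 to 8 d against 6 h to 4 d it gave 26 to 38 in loaded and 20 to 35 in unloaded legs, for 9 to 14 d 28 to 31 and 26 to 31, and between the later windows 0 to 0 and 0 to 4 (4 without rat 43). Shares over all genes are not given for these leave-out fits, so a change particular to the factor genes cannot be read from them. With the date code as a block 7 passed in loaded and 9 in unloaded legs at 5 to 8 d (9.15% and 8.15% of all genes), and 19 and 16 at 9 to 14 d (20% and 23.4%). Within code 3 alone the counts were 0 and 1 (0.0% and 0.172%), and 3 and 11 (4.88% and 9.73%), with fewer rats. With cyclic loess at 5 to 8 d the share of all called genes that were higher was 51.2% in place of 69.1% in loaded and 49.4% in place of 65.6% in unloaded legs. Of 63 calls of the 24 genes singled out by rule, 59 passed with cyclic loess, 60 with array weights, 63 with the stricter filter, 62 with no filter, 63 with probe set means, 34 with the date code as a block and 12 within code 3. No direction of these 63 calls reversed. No depth applies to arrays, and their number limits the precision.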

Other observations

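In loaded legs at 6 h to 4 d several genes split the same rats. The widest gap between neighbouring values of Eef2k separated 7 legs between 10.01 and 10.26 from 6 between 9.10 and 9.69, and that of Eif4e3 separated 7 legs between 8.70 and 9.20 from 6 between 7.47 and 8.27. In both genes the higher legs were those of rats 11, 13, 17, 19, 21, 27 and 33. For Eif4e the widest gap set 8 legs between 10.08 and 10.36, those of the same rats and rat 15, above 5 between 9.59 and 9.77. These splits were seen in the values and not tested, and exact durations within the window were not used. In unloaded legs the widest gap left 1 leg above the other 12 for each of these genes, rat 33 for Eef2k and Eif4e3 and rat 17 for Eif4e.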
